A study of Mus musculus with 12 samples.

Results

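The acute hepatic response to CDDO-Im was examined in 6 of the 12 livers of the study, the 3 WT livers taken 6 h after the compound and the 3 WT livers taken 6 h after vehicle. The samples were chosen by their titles alone (WT vehicle mice 1, 2 and 3, and WT CDDO-Im mice 2, 3 and 4), and the response was described across all 8338 genes that passed a filter on low signal. All mice were C57BL/6J males aged 9 weeks. The WT mice were the genetic controls of a conditional Keap1 knockout, and both treatment groups had Albumin-Cre, 1 floxed Keap1 allele and 1 wild-type allele. Albumin-Cre acts in hepatocytes and can delete the floxed allele there, so WT hepatocytes may hold a single working Keap1 allele, and WT is a label for these controls rather than for an unaltered locus. CDDO-Im was given once by gavage at 30 umol/kg, and control mice received the vehicle of DMSO, Cremophor-EL and PBS. The other 6 livers came from Keap1 conditional knockout mice (CKO), which had Albumin-Cre, 1 floxed and 1 null allele, and received the same treatments in groups of 3. They were used for the shared estimate of spread and for the test of whether the response differed between genotypes.

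Nrf2, encoded by Nfe2l2, is a transcription factor that is normally held at a low level because Keap1, an adaptor of a Cullin-3 ubiquitin ligase, presents it for degradation. Electrophiles react with cysteines of Keap1, after which Nrf2 accumulates, pairs with small Maf proteins and binds antioxidant response elements near genes of glutathione metabolism, quinone reduction, NADPH supply and conjugate export. CDDO-Im is a synthetic oleanane triterpenoid with an electrophilic core, and the liver is a main site of these detoxification reactions.

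The antioxidant response element was looked up in promoter sequences, because many of the genes described here are textbook targets of Nrf2. The core searched was TGACNNNGC on either strand (GCNNNGTCA where it lies on the opposite strand), in the 300 bases from 250 before to 50 after each start site in RefSeq promoters of assembly GRCm38.p6. The sequences below belong to 5 genes that rose with CDDO-Im, run 5′ to 3′ along the gene's strand and have the core in capitals. They were chosen to show where the core lies upstream of a metallothionein, an iron-regulating ligand, a glutathione synthesis subunit, a small Maf and a thioredoxin reductase.
Mt2: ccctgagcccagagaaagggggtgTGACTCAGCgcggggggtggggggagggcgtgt
Bmp6: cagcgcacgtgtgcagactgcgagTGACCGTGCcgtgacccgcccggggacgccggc
Gclm: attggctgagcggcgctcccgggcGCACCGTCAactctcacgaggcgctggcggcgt
Mafg: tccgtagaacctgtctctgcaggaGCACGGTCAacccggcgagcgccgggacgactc
Txnrd1: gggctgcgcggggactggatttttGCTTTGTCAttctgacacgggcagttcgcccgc
The Mt2 stretch is chr8:94172515-94172571 on the plus strand, with the core 79 to 71 bases before the start. That of Bmp6 is chr13:38345584-38345640 (plus strand, core 108 to 100 bases before the start), and that of Gclm is chr3:122245399-122245455 (plus strand, 134 to 126 bases). That of Mafg is chr11:120633737-120633793 (minus strand, 222 to 214 bases), and that of Txnrd1 is chr10:82859090-82859146 (plus strand, 92 to 84 bases). Upstream cores were also found for Aacs, Gimap9 and Hes6, which fell. A match is a description of letters and not evidence of binding. Of the 32851 windows in the table, 12.4% held the core. Among genes with a window, it was found for 34 of 132 genes that rose (25.8%), for 18 of 49 that rose at least 2-fold (36.7%), for 25 of 118 that fell (21.2%) and for 1193 of 6856 tested (17.4%). These shares were not tested against each other.

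Within 6 h CDDO-Im raised genes of electrophile reduction, glutathione supply and metal binding and lowered genes of fatty acid synthesis. In all, 304 of 8338 genes tested passed the test (3.65%, limma adjusted p under 0.05), of which 157 were higher (1.88%) and 147 lower (1.76%) than in WT vehicle livers. The change was at least 2-fold for 60 of the genes that rose and 35 of those that fell. The 3 highest rises were those of the carbonyl reductase Cbr3 and the metallothioneins Mt2 and Mt1, and the deepest fall was that of the lipid droplet protein Pnpla3. Pnpla3 passed the filter on low signal only through its WT vehicle livers. For 303 of the 304 called genes all 3 CDDO-Im livers lay on the same side of all 3 vehicle livers, against 23.3% of all genes tested (10.1% with the CDDO-Im livers higher and 13.1% with them lower). The calls were made from the same signals, so this count is a description and adds no support to them. The median change over all genes was -0.02 (log2). Centring every array on its median moved the share of higher genes among the calls from 51.6% to 65.3%. The number of calls rested on single animals: it was 165 without WT vehicle 2, 187 without WT vehicle 3, 163 without WT CDDO-Im 3 and 106 without WT CDDO-Im 4. It was 85 when only the 6 WT arrays were fitted, 124 with no filter on low signal and 526 when every probe set was tested. Of the 80 called genes named here, 45 lost the call with only the 6 WT arrays and 39 with no filter.

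**Figure D1:**
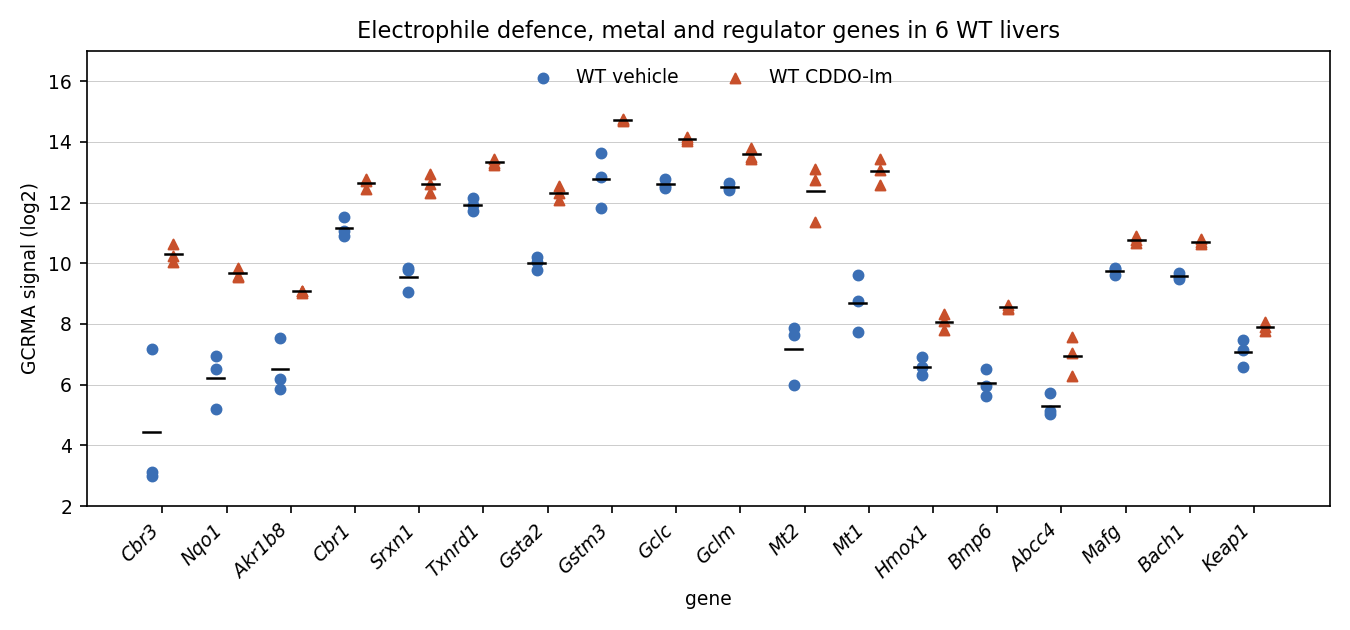
GCRMA signal (log2, vertical axis) of 18 genes in each WT liver; circles are the 3 vehicle mice, triangles the 3 CDDO-Im mice and black lines group means. The groups do not overlap for any of the genes shown; Cbr3 was 7.16 in vehicle mouse 2 and near 3 in the other vehicle mice.

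The regulators of the pathway moved by modest amounts, and the negative regulators were among them. Of 11 members tested, 4 rose (Bach1, Mafg, Keap1 and Sqstm1) and 1 fell (Btrc), where 1.88% of all genes rose and 1.76% fell. The median change was 0.24 (log2) against -0.02 over all genes. Bach1, a repressor that competes for antioxidant response elements, had signals of 9.55, 9.68 and 9.48 (log2) in vehicle mice 1, 2 and 3 and of 10.80, 10.69 and 10.64 in CDDO-Im mice 2, 3 and 4. Its rise was 1.14 ± 0.14 (log2, SE, adjusted p = 0.00302), or 2.2-fold. Mafg, a small Maf partner of Nrf2, rose from 9.84, 9.62 and 9.80 to 10.91, 10.75 and 10.68, a change of 1.02 ± 0.09 (adjusted p = 4.77e-04). Sqstm1, an autophagy adaptor that binds Keap1, rose by 0.57 ± 0.10 (adjusted p = 0.0134). Keap1 itself was 7.15, 7.48 and 6.58 with vehicle and 7.89, 8.08 and 7.76 with CDDO-Im. The groups did not overlap and the rise was 0.84 ± 0.20 (adjusted p = 0.0478). Both probe sets of Keap1 rose when each was tested, by 0.66 and 0.84. Btrc, a ubiquitin ligase adaptor that also recognises Nrf2, fell by 0.56 on the log2 scale (adjusted p = 0.0229). The transcript of Nrf2, Nfe2l2, was 10.97, 11.24 and 11.14 with vehicle and 10.50, 10.80 and 10.47 with CDDO-Im, a difference of -0.52 ± 0.14 that did not pass (adjusted p = 0.064), but did without CKO vehicle 4 (adjusted p = 0.0427). The Keap1 call was lost in 10 of the 12 fits that each left out 1 array, with an adjusted p of up to 0.134 without WT CDDO-Im 3, that of Btrc without WT vehicle 3, WT CDDO-Im 3 or WT CDDO-Im 4 (up to 0.0866), and that of Sqstm1 without WT CDDO-Im 3 (0.0509), when 2 members of the list rose. With only the 6 WT arrays 2 members rose and 0 fell.

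Enzymes that reduce quinones and carbonyls held the largest rise of the response. Of 19 members tested, 5 rose and 0 fell, with a median of 0.07, where 1.88% of all genes rose and 1.76% fell. Cbr3, a carbonyl reductase, stood at 3.14, 7.16 and 3.01 in the vehicle livers and at 10.24, 10.05 and 10.62 in the CDDO-Im livers. Vehicle mouse 2 was well above its group, yet no vehicle liver reached the drug group, and the change was 5.87 ± 0.88 (adjusted p = 0.00656). Because the other vehicle values lay close to the lowest values of the arrays, no linear fold is given. Nqo1, the quinone reductase often used as a readout of Nrf2, went from 5.18, 6.53 and 6.96 to 9.86, 9.59 and 9.56. This was a rise of 3.45 ± 0.35 (adjusted p = 9.34e-04), or 10.9-fold, and the drug-treated mice differed far less among themselves than the vehicle mice did, with SDs of 0.16 and 0.93. Akr1b8, an aldo-keto reductase, rose from 5.86, 7.55 and 6.18 to 9.10, 9.02 and 9.10 (2.55 ± 0.41, adjusted p = 0.0092), with vehicle mouse 2 again the highest of its group. Cbr1, a broad carbonyl reductase, rose by 1.48 ± 0.16 (adjusted p = 9.34e-04) and Akr1c13 by 0.62 ± 0.14 (adjusted p = 0.0411). The aldo-keto reductase Akr1c19, outside this list, rose from 11.83, 12.39 and 12 to 13.65, 14.17 and 14.27 (1.96 ± 0.19, adjusted p = 7.71e-04). Several relatives were not called, among them the epoxide hydrolase Ephx1 (0.44 ± 0.11, adjusted p = 0.0546) and the retinaldehyde dehydrogenase Aldh1a1 (0.17 ± 0.08, adjusted p = 0.263). The Akr1c13 call was lost in 8 of 12 fits without an array (adjusted p up to 0.148, without WT CDDO-Im 4). With only the 6 WT arrays 2 of these enzymes rose, and Cbr3 (adjusted p = 0.0932), Akr1b8 (0.0762) and Akr1c13 (0.0992) did not pass. With no filter 3 rose. Transcripts of near-identical relatives can share probes, so values of aldo-keto reductases and of glutathione transferases are uncertain to that extent.

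Glutathione, the tripeptide that traps electrophiles, is made in steps led by glutamate-cysteine ligase. Of 13 genes of glutathione supply tested, 3 rose and 0 fell (median 0.26), where 1.88% of all genes rose. The 3 were both ligase subunits and glutathione reductase. Gclc, the catalytic subunit, was 12.46, 12.56 and 12.76 in vehicle livers and 14.10, 14.14 and 14.04 in CDDO-Im livers. The rise of 1.5 ± 0.11 (2.83-fold) had the smallest adjusted p of the genes named here, 3.33e-04. Gclm, the modifier subunit, rose from 12.42, 12.47 and 12.66 to 13.51, 13.79 and 13.45 (1.07 ± 0.11, adjusted p = 9.34e-04). Gsr, which returns oxidised glutathione to its reduced form, rose by 0.95 ± 0.13 (adjusted p = 0.00388). The calls of these 3 genes held in every fit without an array, that of Gsr was lost with only the 6 WT arrays, and the list's median was 0.13 without WT vehicle 1. Glutathione synthetase (Gss), which completes the tripeptide, differed by 0.55 ± 0.13 and did not pass (adjusted p = 0.052), nor did the cysteine-forming enzyme Cth (0.48 ± 0.12, adjusted p = 0.0561).

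Glutathione transferases, which attach glutathione to electrophiles, had mostly positive changes. Of 19 tested, 17 had a positive change, 4 rose and 0 fell, where 1.88% of all genes rose. The median was 0.34 against -0.02 over all genes. Gsta2 rose from 10.20, 9.77 and 10.05 to 12.53, 12.31 and 12.10 (2.30 ± 0.18, 4.94-fold, adjusted p = 4.77e-04). Gstm3 stood at 12.83, 11.84 and 13.62 with vehicle and at 14.73, 14.69 and 14.74 with CDDO-Im, so that a wide vehicle range met a near-uniform drug group (1.96 ± 0.33, adjusted p = 0.0121). Gsta4, which handles lipid peroxidation aldehydes, rose by 1.17 ± 0.27 (adjusted p = 0.0453). Gstm1, already among the brightest signals, went from 15.85, 15.61 and 15.83 to 16.14, 16.11 and 16.13 (0.37 ± 0.08, adjusted p = 0.0386). Gstm4 (1.04 ± 0.28, adjusted p = 0.0773) and Gstp1 (0.10 ± 0.06, adjusted p = 0.425) were not called. Gstp1 had signals of 16.00 to 16.16 in all 6 livers. The number of transferases that rose was 2 without WT vehicle 2, WT CDDO-Im 2, WT CDDO-Im 3 or CKO CDDO-Im 3 and 1 without WT CDDO-Im 4, when Gsta2 alone kept its call. It was 1 with only the 6 WT arrays and 1 with no filter.

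The thioredoxin system and its source of NADPH moved through a few enzymes. Of 17 thioredoxin and peroxide genes tested, 2 rose and 0 fell (median 0.08), where 1.88% of all genes rose. Srxn1, which repairs over-oxidised peroxiredoxins, rose from 9.05, 9.84 and 9.76 to 12.32, 12.94 and 12.61 (3.07 ± 0.25, 8.40-fold, adjusted p = 4.77e-04). Txnrd1, the thioredoxin reductase of the cytosol, rose from 11.71, 12.16 and 11.93 to 13.31, 13.44 and 13.24 (1.40 ± 0.13, adjusted p = 4.77e-04). The groups did not overlap for either gene. When every probe set was tested, the 4 of Srxn1 changed by 0.41 to 3.33 and 3 of them passed. Thioredoxin itself (Txn1, 0.28 ± 0.09, adjusted p = 0.118), catalase (Cat, 0.15 ± 0.08, adjusted p = 0.343) and Gpx4, which detoxifies lipid peroxides (0.39 ± 0.10, adjusted p = 0.0659), did not pass. Gpx2, a glutathione peroxidase described as an Nrf2 target, was 4.31, 6.17 and 4.08 with vehicle and 3.98, 4.50 and 4.74 with CDDO-Im, overlapping groups near background. Of 11 NADPH-producing genes, 3 rose and 0 fell (median 0.15). Pgd of the pentose phosphate pathway rose from 10.41, 10.23 and 10.06 to 11.25, 11.24 and 11.23 (1.01 ± 0.14, adjusted p = 0.00399), and H6pd of the endoplasmic reticulum rose by 0.68 ± 0.10 (adjusted p = 0.00483). The mitochondrial folate enzyme Mthfd1l rose from a mean of 2.7 ± 0.12 to 4.27 ± 0.68 (SD, n = 3 each), still a low signal. Its call was lost without any WT array except WT CDDO-Im 3 (adjusted p up to 0.104). The malic enzyme Me1, which serves fatty acid synthesis and is also an Nrf2 target, differed by -0.46 ± 0.18 (adjusted p = 0.205). Rpia, a pentose phosphate isomerase outside this list, fell from 9.47, 10.04 and 9.17 to 8.29, 8.07 and 7.45 (-1.62 ± 0.30, adjusted p = 0.0197), a call lost without WT vehicle 2 or WT CDDO-Im 4 (up to 0.079).

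Metallothioneins, small cysteine-rich proteins that bind zinc and copper, gave the highest rises after Cbr3. Mt2 was 7.63, 5.99 and 7.88 in vehicle livers and 12.73, 11.37 and 13.09 in CDDO-Im livers, a change of 5.23 ± 0.55 (37.6-fold, adjusted p = 9.34e-04). Mt1 was 9.62, 7.75 and 8.75 with vehicle and 13.08, 12.56 and 13.44 with the compound (4.32 ± 0.46, 20-fold, adjusted p = 9.34e-04). The other Mt1 probe set had a change of 2.45 and did not pass when every probe set was tested. The lowest drug-treated liver exceeded the highest vehicle liver by more than 2 log2 units for both genes, and in each group the spread among mice was wide. The other 10 genes of metal transport tested were not called, and the list's median was -0.15. The zinc exporter gene Slc30a1, a target of the zinc sensor Mtf1 like the metallothioneins, was not called, with a change of -0.86 ± 0.23 (adjusted p = 0.0659). Slc30a10, a manganese exporter, was 10.02, 10.29 and 10.94 with vehicle and 9.08, 9.45 and 8.68 with CDDO-Im (-1.34 ± 0.32, adjusted p = 0.0504).

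Genes of heme and iron handling included 5 that were called, all of them higher. Of 12 genes of heme metabolism and ferritin tested, 2 rose and 0 fell (median 0.01), where 1.88% of all genes rose. Heme oxygenase 1 (Hmox1) was 6.57, 6.91 and 6.31 with vehicle and 7.81, 8.32 and 8.08 with CDDO-Im, a rise of 1.47 ± 0.29 (2.78-fold, adjusted p = 0.022). Blvrb, a biliverdin reductase that acts after it, rose by 1.0 ± 0.11 (1.99-fold, adjusted p = 0.0016). The change of the ferritin heavy chain Fth1, 0.22 ± 0.07, did not pass (adjusted p = 0.119). The Hmox1 call was lost without WT vehicle 1, WT vehicle 3, WT CDDO-Im 3 or WT CDDO-Im 4 (adjusted p up to 0.0854), each of which left 1 called gene in the list, as did the fit with no filter. Of 14 iron-sensing genes, 3 rose and 0 fell (median 0.19). Bmp6, a ligand made by liver endothelial cells that drives hepcidin when iron is high, rose from 5.64, 6.51 and 5.96 to 8.63, 8.51 and 8.50 (2.51 ± 0.26, 5.70-fold, adjusted p = 9.34e-04). Its partner ligand Bmp2 rose from 7.21, 7.27 and 7.13 to 7.85, 7.92 and 8.08 (0.75 ± 0.10, adjusted p = 0.00399). The iron exporter ferroportin (Slc40a1) rose by 0.56 ± 0.09 (adjusted p = 0.00851). Hepcidin itself (Hamp), the usual target of Bmp signalling, was 14.66, 14.58 and 14.69 with vehicle and 14.80, 14.93 and 14.73 with CDDO-Im. These groups did not overlap, as for 23.3% of all genes tested, but the change of 0.18 ± 0.24 was not called (adjusted p = 0.736). The transferrin receptor Tfrc was not called either (0.20 ± 0.23, adjusted p = 0.687).

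Genes of conjugate export, conjugation and phase I metabolism are described next. Of 12 efflux transporters tested, 3 rose and 0 fell, where 1.88% of all genes rose. They had 11 positive changes and a median of 0.36 against -0.02 over all genes. Abcc4, which exports bile acid and drug conjugates toward blood, rose from 5.12, 5.72 and 5.03 to 6.28, 7.03 and 7.57 (1.67 ± 0.28, 3.19-fold, adjusted p = 0.011). Abcc1 rose from 3.34, 4.33 and 3.34 to 5.50, 5.39 and 5.26 (1.72 ± 0.27, adjusted p = 0.00776), a change that began near background. Abcc3, the main sinusoidal exporter of glucuronides, was bright throughout and rose by 0.55 ± 0.13 (adjusted p = 0.0418; lost in 8 of 12 fits without an array, up to 0.143), whereas Abcc2 of the bile canaliculus was not called (0.31 ± 0.12, adjusted p = 0.196). With only the 6 WT arrays 0 efflux transporters passed limma's test (adjusted p of 0.071 for Abcc1, 0.108 for Abcc4 and 0.0973 for Abcc3), and with no filter on low signal 1 rose, Abcc1. Of 17 genes of glucuronidation and sulfation, 2 rose and 0 fell (median 0.15). Ugdh, which makes the UDP-glucuronic acid used by all glucuronosyltransferases, rose from 12.50, 12.48 and 13.05 to 13.82, 13.82 and 13.84 (1.15 ± 0.13, adjusted p = 0.00145). Ugt2b35 rose by 0.54 ± 0.10 (adjusted p = 0.0206), a call lost without WT CDDO-Im 3 or WT CDDO-Im 4 (up to 0.0859), with only the WT arrays and with no filter. No member was called among 9 hepatic uptake transporters, 8 carboxylesterases and 23 cytochrome P450 genes of families 1 to 3, whose medians were 0.05, 0.01 and 0.01 and of which 1, 2 and 3 had an unadjusted limma p under 0.05. At 3.65% of all genes called, lists of these sizes hold few calls. The phenobarbital-responsive Cyp2b10 was 7.23, 3.61 and 6.72 with vehicle and 5.77, 5.77 and 7.41 with CDDO-Im, and the changes of Cyp1a2 (0.65 ± 0.22, adjusted p = 0.134) and Cyp3a11 (-0.09 ± 0.37, adjusted p = 0.935) did not pass. Of 21 nuclear and xenobiotic receptors, Ppard rose by 0.63 ± 0.13 (adjusted p = 0.0248) and Nr2f2 fell by 0.67 on the log2 scale (adjusted p = 0.017). Both calls were lost without WT CDDO-Im 4 (0.0833 and 0.0577), that of Ppard also without WT vehicle 1 or 2 and that of Nr2f2 also without WT vehicle 3. Neither passed with only the WT arrays or with no filter.

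**Figure D2:**
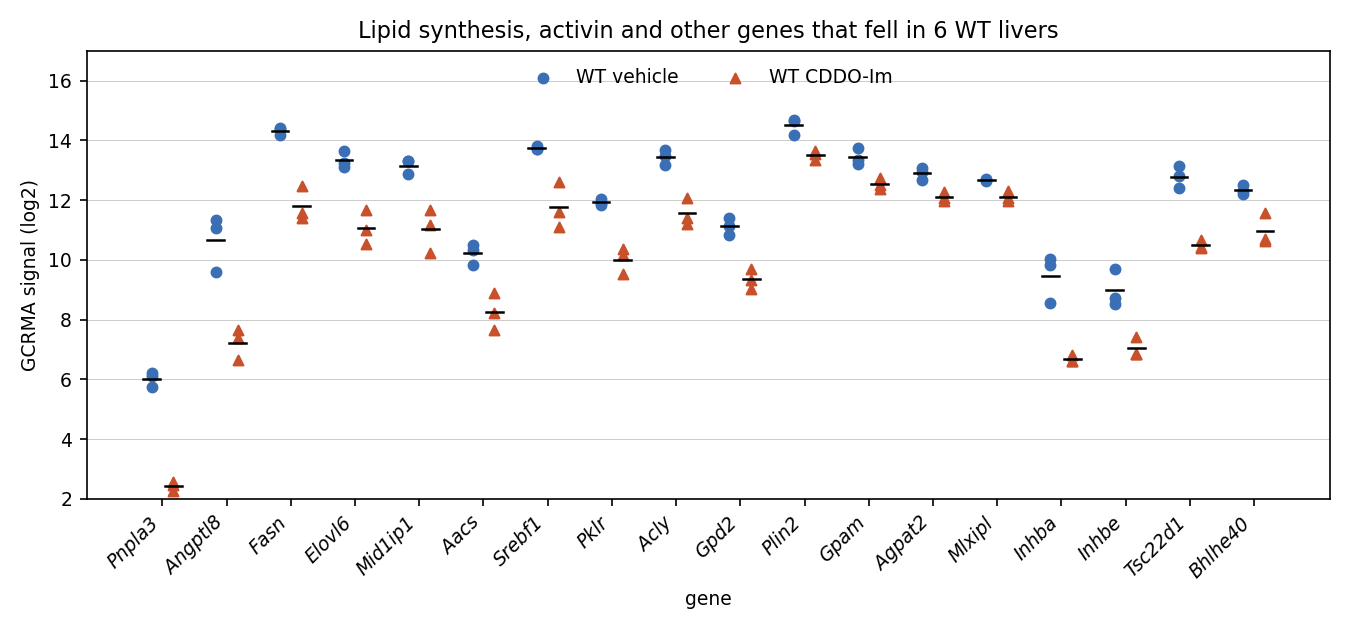
GCRMA signal (log2, vertical axis) of 18 genes that fell, in each WT liver; circles are the 3 vehicle mice, triangles the 3 CDDO-Im mice and black lines group means. All 3 CDDO-Im livers lie below all 3 vehicle livers for each gene, and Pnpla3 ends between 2.26 and 2.55, near the lowest values of the arrays.

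Fatty acid and triglyceride synthesis held the most called falls of the 34 pathway lists. Of 26 members tested, 10 fell and 0 rose, with a median change of -0.51 (log2) against -0.02 over all genes, of which 1.76% fell. The genes that fell span the route from pyruvate to stored fat: Pklr makes pyruvate, Acly cytosolic acetyl-CoA, Fasn palmitate, Elovl6 longer chains, and Gpam and Agpat2 glycerolipids. Fasn, fatty acid synthase, was 14.43, 14.18 and 14.37 in vehicle livers and 12.47, 11.57 and 11.41 in CDDO-Im livers (-2.51 ± 0.34, 5.69-fold lower, adjusted p = 0.004). Elovl6 went from 13.12, 13.64 and 13.25 to 11.66, 11.00 and 10.51 (-2.28 ± 0.41, 4.85-fold lower, adjusted p = 0.0165). In both genes CDDO-Im mouse 2 was the least lowered of its group. Acly went from 13.67, 13.48 and 13.17 to 12.09, 11.41 and 11.19 (-1.88 ± 0.30, adjusted p = 0.00924), and Pklr from 11.84, 12.05 and 11.91 to 10.36, 10.15 and 9.52 (-1.92 ± 0.22, adjusted p = 0.00161). Genes of transcription factors of lipid synthesis, Srebf1 and Mlxipl, fell too, and whether their falls bear on those of the enzymes was not tested. Srebf1, which encodes SREBP-1, went from 13.80, 13.72 and 13.72 to 12.62, 11.62 and 11.10, a tight control group against a spread-out drug group (-1.97 ± 0.40, 3.92-fold lower, adjusted p = 0.0259). Mlxipl, which encodes the carbohydrate sensor ChREBP, fell by 0.56 on the log2 scale (adjusted p = 0.0248). Mid1ip1, an activator of acetyl-CoA carboxylase, fell from 12.86, 13.30 and 13.31 to 11.66, 11.17 and 10.24 (-2.13 ± 0.33, adjusted p = 0.00787).

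Pnpla3, a lipid droplet protein induced by SREBP-1 and ChREBP, fell from 6.20, 6.11 and 5.74 to 2.55, 2.26 and 2.46 (-3.59 ± 0.32, adjusted p = 4.77e-04). Because the drug group ended near the lowest signals, no linear fold is given. Pnpla3 passed the filter only through the WT vehicle livers, where it was high, so its fall is a description. Gpam and Agpat2 fell by 0.89 and 0.81 on the log2 scale (adjusted p = 0.0178 and 0.00694). Acaca, acetyl-CoA carboxylase, was 10.70, 10.39 and 10.37 with vehicle and 9.65, 8.97 and 8.78 with CDDO-Im, without overlap, but its change of -1.36 ± 0.33 did not pass (adjusted p = 0.052). The desaturase Scd1 was 14.77, 14.93 and 14.26 with vehicle and 14.41, 14.63 and 14.82 with CDDO-Im, overlapping groups with a change of -0.03 ± 0.21 (adjusted p = 0.963). Lpin1, a phosphatidate phosphatase that fasting induces, had a positive change that was not called (1.69 ± 0.71, adjusted p = 0.227). The number of members that fell was 6 without WT CDDO-Im 3 and 6 without WT CDDO-Im 4, and 5 with only the WT arrays or with no filter. Among the single genes, the calls of Srebf1 and Mlxipl were lost without any WT array except WT CDDO-Im 2 (adjusted p up to 0.0948 and 0.0956). Those of Elovl6 and Gpam were lost without WT CDDO-Im 3 or WT CDDO-Im 4 (up to 0.0736 each), and that of Elovl6 also without WT vehicle 2.

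Of the deepest falls outside the list, 3 were also those of genes of lipid handling, which were named because they fell. Angptl8, a feeding-induced secreted inhibitor of lipoprotein lipase, was 9.58, 11.07 and 11.33 with vehicle and 7.66, 6.65 and 7.38 with CDDO-Im (-3.43 ± 0.68, 10.8-fold lower, adjusted p = 0.0241), a call lost without WT vehicle 2, WT vehicle 3, WT CDDO-Im 3 or WT CDDO-Im 4 (up to 0.084). Gpd2, the mitochondrial glycerol-3-phosphate dehydrogenase, went from 11.40, 11.12 and 10.85 to 9.70, 9.34 and 9.03 (-1.77 ± 0.24, adjusted p = 0.00399). Aacs, which feeds ketone bodies into lipid synthesis, went from 9.84, 10.50 and 10.31 to 8.88, 8.21 and 7.63 (-1.98 ± 0.46, adjusted p = 0.0435), a call lost in 9 of 12 fits without an array (up to 0.154, without WT CDDO-Im 4). Plin2, the main coat protein of hepatocyte lipid droplets, was 14.66, 14.68 and 14.19 with vehicle and 13.64, 13.55 and 13.36 with CDDO-Im (-0.99 ± 0.14, 1.99-fold lower, adjusted p = 0.00482). Plin2 was the only called gene of 28 in the list of fatty acid oxidation and PPAR alpha targets (median -0.13), a share near the 3.65% of all genes, and was not called with only the 6 WT arrays.

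None of the genes of cholesterol synthesis and uptake was called. Of 19 tested, 18 had a change below 0, and the median was -0.52 against -0.02 over all genes. In either direction 0 passed limma's test, with 5 at an unadjusted p under 0.05. The median rested on vehicle mouse 1 and was -0.14 without it. The change of Fdps, an enzyme of the mevalonate route, was -1.09 ± 0.47 (adjusted p = 0.232). That of Insig1, a sterol-regulated retention protein, was -0.56 ± 0.32 (adjusted p = 0.363), with vehicle signals of 11.91, 11.15 and 11.29 and CDDO-Im signals of 11.48, 10.56 and 10.61. Sqle, squalene epoxidase, shows the width of the spread, at 11.72, 9.38 and 8.61 with vehicle and 8.69, 8.83 and 9.93 with CDDO-Im. Srebf2, the main sterol-responsive factor, was not called (adjusted p = 0.998). Among 17 genes of bile acid synthesis and transport none was called by limma (median 0.05, 2 at an unadjusted p under 0.05), including the rate-limiting Cyp7a1 (0.34 ± 0.47, adjusted p = 0.75).

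Glucose and growth factor genes gave a mixed picture. Apart from Pklr, none of the 16 genes of gluconeogenesis and insulin-regulated glucose handling passed (median 0.04). Igfbp1, a secreted protein that insulin represses, was 10.37, 7.01 and 8.11 with vehicle and 10.76, 10.96 and 11.33 with CDDO-Im, so the groups did not overlap, but the change of 2.52 ± 0.83 did not pass (adjusted p = 0.128). Pck1 of gluconeogenesis overlapped between groups (0.97 ± 0.54, adjusted p = 0.36), and the change of G6pc was -0.92 ± 0.45 (adjusted p = 0.293). Of 14 genes of the IGF and activin axis, 2 fell and 0 rose (median -0.10), where 1.76% of all genes fell and 1.88% rose. Both were activin subunits that the liver secretes. Inhba went from 8.56, 10.03 and 9.81 to 6.63, 6.81 and 6.61 (-2.79 ± 0.59, 6.89-fold lower, adjusted p = 0.0327). Inhbe went from 8.51, 9.69 and 8.73 to 6.85, 7.40 and 6.86 (-1.94 ± 0.41, adjusted p = 0.0297). Both calls were lost without any WT array except WT vehicle 1 (adjusted p up to 0.104 each), and that of Inhba also without CKO CDDO-Im 3. Neither gene passed with no filter, and Inhbe did not with only the WT arrays. Of 22 genes of the urea cycle and amino acid breakdown, 2 rose and 0 fell (median 0.10): the aspartate aminotransferase Got1 by 1.12 ± 0.26 (adjusted p = 0.0411) and the tryptophan dioxygenase Tdo2 by 0.34 ± 0.07 (adjusted p = 0.0294). The Got1 call was lost in 9 of 12 fits without an array (up to 0.112, without WT vehicle 2), and that of Tdo2 without any WT array except WT CDDO-Im 2 (up to 0.104). Neither passed with only the WT arrays.

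**Figure D3:**
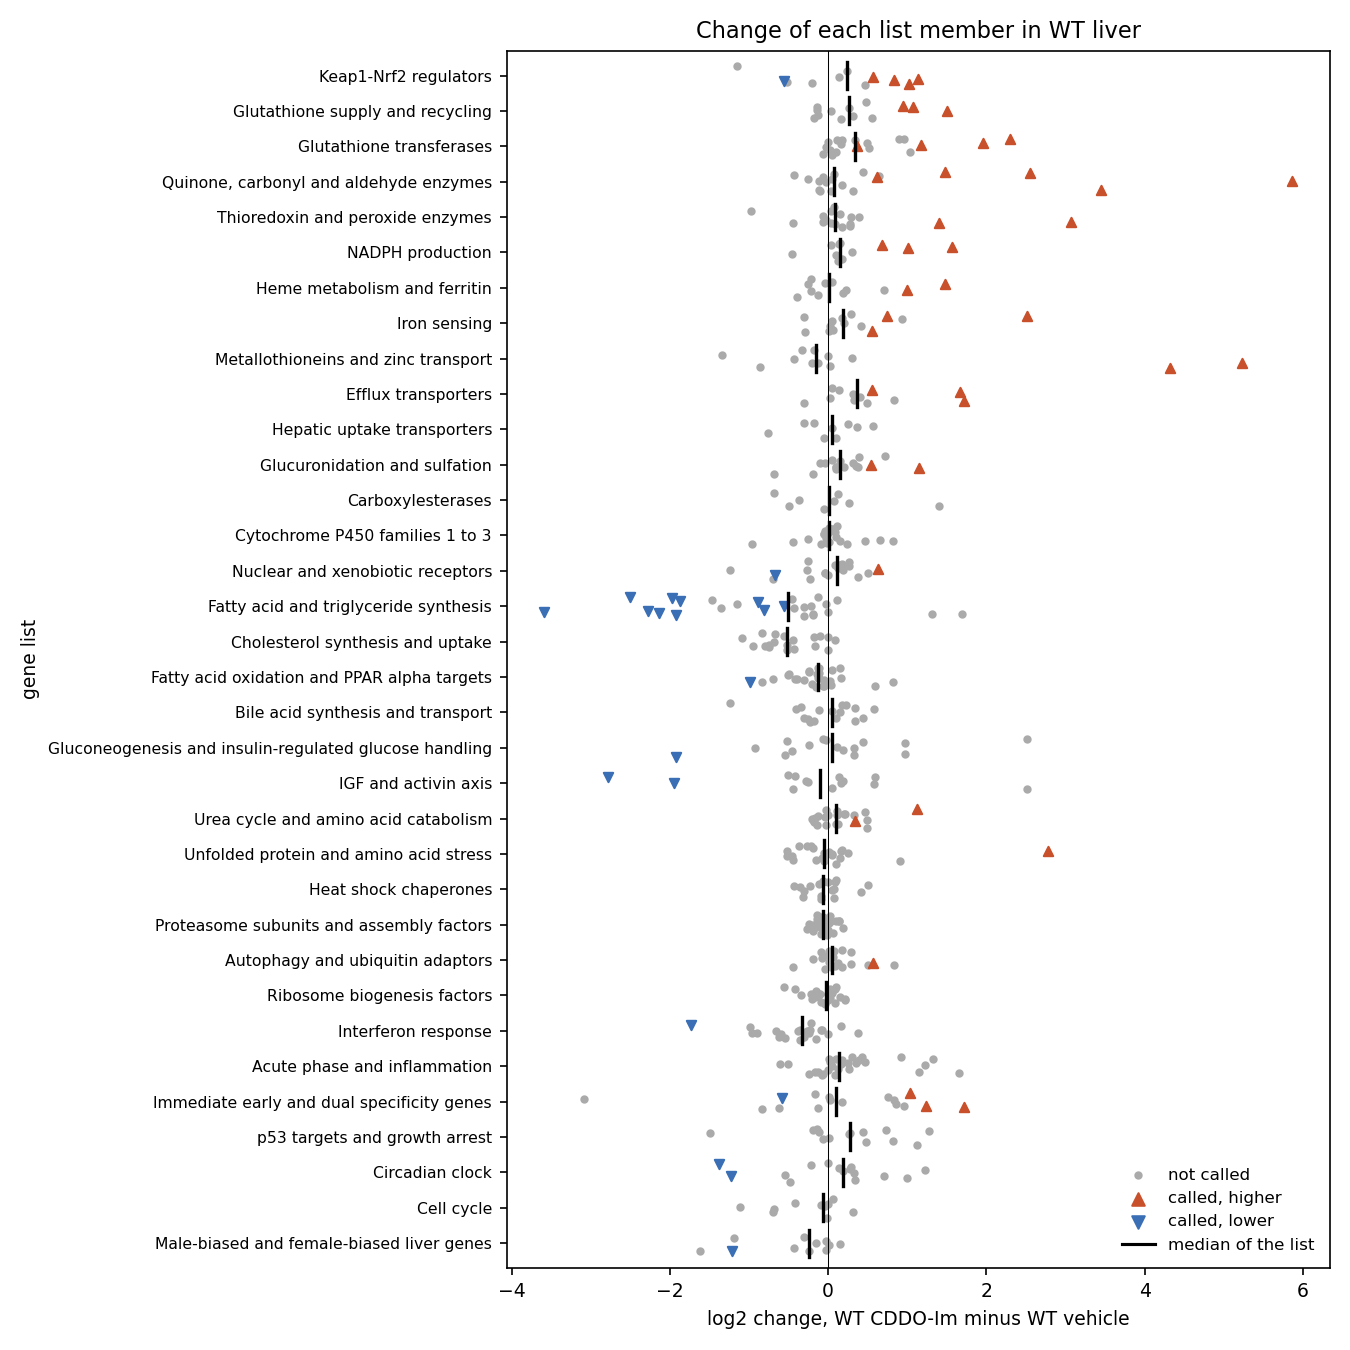
Change of each tested member of 34 pathway lists (horizontal axis, log2, WT CDDO-Im minus WT vehicle; lists on the vertical axis, points spread vertically for legibility). Upward triangles are called rises, downward triangles called falls, grey points genes not called and black bars list medians; Cbr3, Mt2 and Mt1 are the points farthest to the right, and fatty acid and triglyceride synthesis has 10 called falls and a median of -0.51.

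Lists of other stress and growth responses were counted against the 3.65% of all genes called, a share at which a list of their size holds few calls. None of 18 heat shock chaperones, 35 proteasome genes, 26 ribosome biogenesis factors, 28 acute phase genes, 14 p53 targets and 10 cell cycle genes passed limma's test, with medians of -0.07, -0.06, -0.03, 0.14, 0.27 and -0.07. At an unadjusted p under 0.05 they held 2, 1, 0, 3, 4 and 3 genes. The proteasome genes stayed between -0.27 and 0.18. Of 23 genes of the unfolded protein and amino acid stress response, Ddit4 alone rose. Ddit4, an inhibitor of mTORC1 that glucocorticoids and stress induce, was 9.61, 7.90 and 7.47 with vehicle and 10.86, 10.24 and 12.20 with CDDO-Im (2.78 ± 0.63, adjusted p = 0.0397), a call lost in 9 of 12 fits without an array (up to 0.134, without WT CDDO-Im 4). Ddit3, which encodes CHOP, differed by -0.52 ± 0.27 (adjusted p = 0.319). Of 22 autophagy genes, Sqstm1 alone rose (median 0.04). The acute phase gene Saa1 was 12.79, 10.31 and 11.82 with vehicle and 13.28, 11.63 and 14.01 with CDDO-Im, overlapping groups with a change of 1.33 ± 0.93 (adjusted p = 0.475).

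Of 16 early response genes, 3 rose and 1 fell (median 0.10), where 1.88% of all genes tested rose and 1.76% fell. The liver transcription factor Cebpd went from 7.13, 7.01 and 5.93 to 8.16, 8.22 and 8.82 (1.71 ± 0.30, adjusted p = 0.0134). Myc rose by 1.23 ± 0.25 (adjusted p = 0.0271) and Cebpb by 1.04 ± 0.23 (adjusted p = 0.037), while Jund fell by 0.59 on the log2 scale (adjusted p = 0.011). The list had no call without WT CDDO-Im 4 (adjusted p of 0.0598, 0.0506, 0.128 and 0.0512 for Cebpd, Myc, Cebpb and Jund) and 1 rise without WT CDDO-Im 2. The Myc call was lost in 5 of 12 fits without an array (up to 0.087) and that of Cebpb in 8. With only the WT arrays limma called 0 of the list, and with no filter 0 rose. Of 22 interferon response genes, 20 had a change below 0, where the median over all genes was -0.02. The list's median was -0.33 (-0.14 without WT CDDO-Im 4, -0.20 without WT vehicle 2 and -0.58 without WT CDDO-Im 3). Only Oasl1, an antiviral regulator, was called, a share near the 3.65% of all genes. It fell from 9.55, 9.20 and 9.61 to 7.10, 8.42 and 7.63 (-1.73 ± 0.38, adjusted p = 0.0348). The Oasl1 call was lost in 6 of 12 fits without an array (up to 0.111, without WT CDDO-Im 4), with only the WT arrays and with no filter. The canonical responder Ifit1 was 10.13, 10.62 and 9.53 with vehicle and 8.54, 9.89 and 8.89 with CDDO-Im, overlapping groups (-0.98 ± 0.77, adjusted p = 0.529). Of 15 clock genes, Bhlhe40, a repressor that also responds to feeding, and Per2 fell, by 1.38 and 1.23 on the log2 scale (adjusted p = 0.0227 and 0.0435). Neither passed without WT vehicle 2, WT CDDO-Im 3 or WT CDDO-Im 4 (up to 0.0922 and 0.149), Bhlhe40 did not without WT vehicle 1, and Per2 lost its call in 9 of 12 such fits. Both calls were lost with only the WT arrays and with no filter. Nudt7, a peroxisomal coenzyme A hydrolase held in the list of male-biased and female-biased liver genes, was the sole call of its 11 tested members and fell by 1.22 on the log2 scale (adjusted p = 0.0163), a call lost without WT vehicle 3 or WT CDDO-Im 4 (up to 0.0748).

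Among the 20 highest rises were genes of cells other than hepatocytes and of signalling. Lyve1, a hyaluronan receptor of sinusoidal and lymphatic endothelium, went from 5.01, 5.49 and 6.77 to 8.25, 7.91 and 8.84 (2.57 ± 0.46, 5.95-fold, adjusted p = 0.015), a call lost without WT vehicle 2 or WT CDDO-Im 4 (up to 0.0701). Clec4n, which encodes the myeloid lectin Dectin-2, went from 5.24, 5.07 and 4.90 to 7.39, 7.15 and 7.23 (2.19 ± 0.27, 4.56-fold, adjusted p = 0.00288). Pla2g7, the secreted platelet-activating factor hydrolase, went from 5.28, 4.82 and 5.21 to 6.99, 6.96 and 7.52 (2.05 ± 0.28, adjusted p = 0.00399). In whole liver a change in the number of cells and a change in RNA per cell cannot be told apart. Lyve1 was the single called gene of 9 endothelial markers tested (median -0.13), and the summed linear signal of the endothelial list was 3730 to 4444 with vehicle and 3406 to 4341 with CDDO-Im. None of 12 macrophage and Kupffer cell markers was called by limma (2 at an unadjusted p under 0.05), and their summed signal was 8727 to 16788 with vehicle and 11993 to 13519 with CDDO-Im. For Bmp6, Bmp2 and Lyve1 the part of endothelial cells in the result was not tested, nor was that of macrophages for Clec4n and Pla2g7.

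The other genes with high rises were the AMP deaminase Ampd3 (2.14 ± 0.26, adjusted p = 0.0021), the RNA-binding repressor Samd4 (2.34 ± 0.35, adjusted p = 0.00608), the aromatic amino acid decarboxylase Ddc (1.83 ± 0.23, adjusted p = 0.00302), and Slc35e3 (1.85 ± 0.36, adjusted p = 0.022). The monocarboxylate transporter Slc16a5 (1.89 ± 0.46, adjusted p = 0.0497) and the cAMP phosphodiesterase Pde4d (1.81 ± 0.34, adjusted p = 0.0212) completed them. Slc16a5 lost its call in 11 of 12 fits without an array (up to 0.136, without WT CDDO-Im 3), Slc35e3 without WT CDDO-Im 3 or 4 (up to 0.0891), and Pde4d without WT CDDO-Im 2 or 4 (up to 0.087). The other deep falls were those of the leucine zipper protein gene Tsc22d1, from 12.41, 12.80 and 13.15 to 10.41, 10.68 and 10.42 (-2.29 ± 0.20, 4.88-fold lower, adjusted p = 4.77e-04), and of Carmil1, a regulator of actin capping (-1.66 ± 0.30, adjusted p = 0.0174; lost without WT vehicle 1, WT vehicle 2 or WT CDDO-Im 4, up to 0.0723). The transcription factor genes Lhx6 (-1.47 ± 0.20, adjusted p = 0.00397) and Hes6 (-1.38 ± 0.17, adjusted p = 0.0021) fell as well. So did Gimap9 of the immune GTPase family (-1.38 ± 0.31, adjusted p = 0.0391), whose call was lost in 8 of 12 fits without an array (up to 0.107, without WT vehicle 2).

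The tissue carried the marks of liver in all 6 WT samples. The summed linear signal of 14 hepatocyte markers was 541200 to 567309 with vehicle and 572068 to 578206 with CDDO-Im. The asialoglycoprotein receptor gene Asgr1 was the only called member, with a rise of 0.36 ± 0.07 (1.29-fold, adjusted p = 0.029), a call lost without WT vehicle 2, WT vehicle 3, WT CDDO-Im 3 or WT CDDO-Im 4 (up to 0.0899). Of 8 neutrophil markers with a probe set, Mpo, Camp, Ngp and Cxcr2 were under a log2 value of 3 on all 6 arrays. So were 9 of 11 lymphocyte markers, Adipoq, Cidec and Lep of 5 adipose markers, and Cela2a, Cpa1, Cpb1 and Ctrb1 of 6 pancreatic genes. The remaining members of these lists were above that value on at least 1 array. None of 9 stellate cell and fibroblast markers was called by limma (median -0.07, 0 at an unadjusted p under 0.05). The summed adipose list was lower with CDDO-Im, at 21431 to 27832 against 34503 to 40110. Nearly all of that signal came from Car3, which hepatocytes also express strongly, at 15.29, 15.21 and 15.07 with vehicle and 14.76, 14.42 and 14.38 with CDDO-Im (adjusted p = 0.361).

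Whether the response differed where Keap1 had been deleted was tested as the interaction of genotype and treatment. In CKO livers 0 genes were called for CDDO-Im (0%; lowest limma adjusted p = 0.225; 790 genes had an unadjusted p under 0.05, against 1632 in WT livers). The difference between genotypes was called for 23 of 8338 genes (0.276%), all of which were also called in WT livers. For 21 of them the WT rise was larger and for 2 the WT fall was larger. The median change of the 157 genes that rose in WT was 0.84 in WT and 0.07 in CKO livers, and that of the 147 genes that fell was -0.65 and -0.19. Because these genes were chosen by their WT change, the WT medians are a description. In CKO livers 98 of the 157 kept a positive sign and 122 of the 147 a negative sign, where 43.6% of all genes tested were positive.

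**Figure D4:**
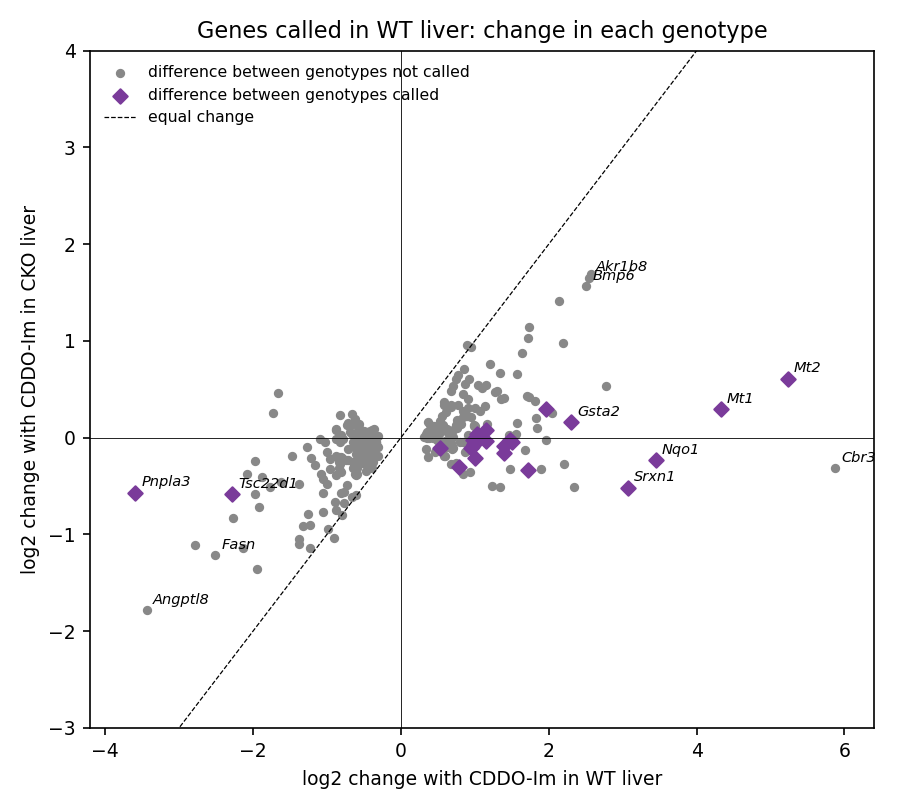
Change with CDDO-Im in WT livers (horizontal axis, log2) and in CKO livers (vertical axis, log2) for the 304 genes called in WT livers. Purple diamonds are the 23 genes whose difference between genotypes was called and the dashed line marks equal change. In CKO livers Mt2 lies at 0.61, Nqo1 at -0.23 and Srxn1 at -0.52. Akr1b8, Bmp6, Angptl8 and Fasn, whose differences were not called, lie between 0 and the line.

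Changes of single genes are given here for both genotypes. Srxn1 changed by 3.07 ± 0.25 in WT and -0.52 ± 0.25 in CKO livers (difference -3.59 ± 0.36, adjusted p = 0.0052). Gclc changed by 1.5 ± 0.11 and -0.05 ± 0.11 (difference -1.54 ± 0.15, adjusted p = 0.0052), Gsta2 by 2.30 and 0.16 (adjusted p = 0.0138), Txnrd1 by 1.40 and -0.08 (adjusted p = 0.0138) and Nqo1 by 3.45 and -0.23 (adjusted p = 0.0187). For Nqo1 the CKO vehicle mean, 11.08, was already above the WT CDDO-Im mean of 9.67, and for Mt2 the CKO vehicle mean was 13.10 against a WT CDDO-Im mean of 12.40. Srxn1 was 11.81 in CKO vehicle livers and 12.62 in WT livers given CDDO-Im. Cbr3, with 14.55 in CKO vehicle livers, showed a difference of -6.18 ± 1.25 that did not pass (adjusted p = 0.0885).

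Other genes described above were set side by side in the same way. Bmp6 changed by 2.51 ± 0.26 in WT and by 1.57 ± 0.26 in CKO livers, from a vehicle mean of 6.80 to 8.37, and the difference of -0.94 ± 0.37 did not pass (adjusted p = 0.433). Bmp2 changed by 0.75 and 0.61 (difference -0.14 ± 0.14, adjusted p = 0.772), and Akr1b8 by 2.55 and 1.65 (-0.89 ± 0.58, adjusted p = 0.644). Fasn changed by -2.51 in WT and -1.21 in CKO livers (difference 1.30 ± 0.49, adjusted p = 0.406), with vehicle means of 14.33 and 12.76. Igfbp1 changed by 2.52 and 2.68, neither of them called. Of the 10 fatty acid synthesis genes that fell in WT, Pnpla3 alone differed by the test (-3.59 and -0.57, difference 3.02 ± 0.46, adjusted p = 0.0332) from a CKO vehicle mean of 3.04, near the lowest signals. Pnpla3 was tested only because its WT vehicle livers passed the filter, so this difference is a description. The number of genes that differed was 2 to 14 in each fit that left out 1 of the 10 arrays other than WT vehicle 2 and WT vehicle 3, lowest without CKO CDDO-Im 2, and 7 with no filter on low signal.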

How the data were processed

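Liver RNA of 12 mice was measured on 1 Affymetrix array each. The deposited values are log2 signals of 45101 probe sets, made by the authors; the submitters' processing notes name GCRMA 2.12.1 and R 2.7.0. GCRMA places probe sets without signal at a floor, so changes of low genes depend on its background model, and a linear fold is printed only if each group mean reached 5. WT array medians were 2.33 to 2.34, the lowest correlation between replicates was 0.996, and no pair of arrays was identical (0 pairs). The number of arrays limits the precision.

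The platform annotation named 1 gene for 34945 probe sets, several for 932 and none for 9160, and 34741 matched a RefSeq gene by identifier. The brightest probe set stood for each of 18193 genes, and 8338 were tested, with at least 3 of 12 arrays above a log2 value of 5. limma 3.58.1 in R 4.3.3 fitted 4 group means to all 12 arrays (8 residual and 2.32 prior degrees of freedom). P-values were two-sided and adjusted by Benjamini-Hochberg over 8338 genes. Errors of changes are limma standard errors. The script was tested on simulated data. Alternatives were other normalizations, filters, probe set rules, variance models, a replicate block and leaving out each array.

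The samples, the 44 gene lists and the tests were chosen with earlier results of these data known. The lists name 818 genes, of which 627 were tested and 62 called. Named genes were the 20 highest called rises and the 20 deepest called falls among genes without overlap between groups, members of the lists, and the 5 called differences between genotypes of largest size in each direction, with Keap1, Nfe2l2, Nqo1, Gclc, Gclm, Hmox1, Txnrd1 and Srxn1 always included. Predicted genes and clones were not named. The labels describe replicates as separate mice and give no batch.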

Additional observations from a re-analysis of the deposited data

Results flagged for a closer look

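The response to CDDO-Im differed between genotypes by limma's interaction test for 15 named genes (CKO change minus WT change, log2). The difference was -4.62 for Mt2, -4.03 for Mt1, -3.68 for Nqo1, -3.59 for Srxn1 and -2.15 for Gsta2. It was -1.66 for Akr1c19, -1.54 for Gclc, -1.50 for Cbr1, -1.48 for Txnrd1 and -1.22 for Pgd. It was -1.19 for Ugdh, -1.06 for Gsr and -0.98 for Mafg. For the genes that fell in WT livers it was 3.02 for Pnpla3 and 1.70 for Tsc22d1. Pnpla3 passed the filter on low signal only through its WT vehicle livers.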

How the results depend on the processing

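The 304 calls (157 higher, 147 lower) became 85 (51 and 34) with only the 6 WT arrays, 124 (74 and 50) with no filter on low signal, 526 (279 and 247) with every probe set tested and 114 (75 and 39) with the replicate block. Without 1 array the calls ranged from 106 to 318, the higher genes from 67 to 165 and the lower genes from 39 to 153. The 23 differences between genotypes became 7 with no filter, 42 with every probe set tested and 3 with the replicate block, and ranged from 2 to 31 without 1 array. Whether the replicate numbers pair the mice was not settled. WT vehicle and WT CDDO-Im share numbers 2 and 3, whose deviations correlated at -0.03 and 0.09. Across genotypes, mice of the same number correlated at 0.13, 0.08 and 0.15 with CDDO-Im (numbers 2, 3 and 4) and at 0.14 with vehicle (number 3). All other same-number pairs lay between -0.17 and 0.09. Mice of different numbers ranged more widely, from -0.25 (WT vehicle 1 with WT CDDO-Im 3) to 0.25 (CKO vehicle 4 with WT vehicle 2). A shared batch by number was not tested. With the replicate block, 42 of the 80 named called genes lost the call. Of 80 named called genes, 40 kept the call in all 12 fits without an array and 0 reversed under any alternative run. Of 27 with more than 1 probe set tested, all 27 agreed in sign, but not every probe set passed and sizes differed. For Mt1 1 of 2 passed (2.45 and 4.32), for Srxn1 3 of 4 (0.41 to 3.33) and for Nudt7 2 of 4 (-1.22 to -0.37). Gstm1 (2 of 4), Nr2f2 (2 of 3) and Gpam (1 of 2) also had probe sets that did not pass. For the rest of these genes every probe set passed. Signals near the floor limit Cbr3, Mthfd1l, Abcc1 and Pnpla3.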

Other observations

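Further genes outside the lists were picked after their values were seen and are given as values. For the genes of this section, fits without single arrays, with only the 6 WT arrays or with no filter are not given. Named genes with a limma adjusted p near 0.04 often lost their calls. Got1 (0.0411) and Aacs (0.0435) each did so in 9 of 12 fits without an array. The heme transporter Slc48a1 was 8.82, 9.43 and 9.68 with vehicle and 10.35, 11.08 and 11.14 with CDDO-Im in WT livers (1.55 ± 0.26, adjusted p = 0.0107). Pir, an iron-binding protein, rose by 1.39 ± 0.17 (adjusted p = 0.00208), the lipase Abhd4 by 1.15 ± 0.10 (adjusted p = 4.77e-04) and Ppfibp2 by 1.71 ± 0.18 (adjusted p = 9.34e-04), and all 3 differed between genotypes (adjusted p = 0.0332, 0.0153 and 0.0138). Fkbp5, a chaperone that glucocorticoids induce, was 9.77, 9.57 and 9.00 with vehicle and 11.36, 10.16 and 11.51 with CDDO-Im (1.57 ± 0.33, adjusted p = 0.0312). CDDO-Im mouse 3 was the lowest of its group for Fkbp5, as it was for Ddit4 (10.24), and a shared cause was not tested.

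Fuel handling genes outside the lists moved both ways. The glucose transporter Slc2a1 rose by 1.28 ± 0.29 (adjusted p = 0.0414) and the pyruvate kinase Pkm by 1.09 ± 0.16 (adjusted p = 0.00483), the latter from 5.60, 5.82 and 5.24 to 6.62, 6.63 and 6.70, while the liver form Pklr fell. The triglyceride lipase Pnpla2 rose by 0.68 ± 0.16 (adjusted p = 0.0404). The lactate transporter Slc16a1 was 10.09, 10.28 and 10.03 with vehicle and 9.29, 9.30 and 9.19 with CDDO-Im (-0.88 ± 0.13, adjusted p = 0.00524). Pik3r1, a regulatory subunit of the insulin-responsive PI3-kinase, fell by 0.88 on the log2 scale (adjusted p = 0.022), and Leap2, a liver-made antagonist of the ghrelin receptor, fell by 1.32 (adjusted p = 0.0236).

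The antiviral genes Dhx58, Cmpk2 and Shfl fell by 0.88, 0.83 and 0.98 on the log2 scale (adjusted p = 0.0294, 0.0204 and 0.0411). The myeloid genes Treml4 and Slc11a1 rose by 1.39 ± 0.14 and 0.91 ± 0.21 (adjusted p = 9.34e-04 and 0.0409), and the part of macrophages in this was not tested.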
